A study of Mus musculus with 12 samples.

Results

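The immediate-early and AP-1 genes Jun, Junb, Jund, Fos, Egr1, Ier2, Ier3, Klf6, Myc and Btg2 were followed in mouse liver RNA-seq. The 10 genes were found by symbol among 31114 genes, through the Ensembl transcript identifiers of the quantification files, and the reads of their transcripts were summed per gene in each liver. All 10 had reads in every liver. Of the 8846 genes with a TPM (Salmon's abundance per transcript length and library size) of at least 5 in at least 4 livers, 7 were members. Fos, Egr1 and Ier3 reached that level in 1 liver only and were fitted without an expression filter.

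Immediate-early genes are transcribed within minutes of a growth or stress signal, from transcription factors already present in the cell, and their short-lived mRNAs fall back soon after. AP-1 is a dimer of JUN and FOS family proteins, usually activated by MAP kinases. In liver the JUN and FOS genes and MYC are known for their rise after partial hepatectomy, injury and handling of the tissue.

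All animals were hFIX-R29X mice. Their own F9 gene is missing, and a human F9 minigene with the R29X nonsense codon is expressed in hepatocytes from the human transthyretin promoter. They were 8–14 weeks old and received DPBS (the vehicle), the scrambled Control-GalNAc-ASO at 15 mg/kg or the Upf3b-GalNAc-ASO at 10 mg/kg, an antisense oligonucleotide against the nonsense-mediated decay factor Upf3b. GalNAc is a sugar ligand that directs uptake to hepatocytes. Each mouse was given 6 doses, 5 days apart, and livers were taken 48 h after the last dose from 2 females (replicates 1 and 2) and 2 males (replicates 3 and 4) per group.

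Total depth was 13.28–20.39 M estimated counts per liver. Upf3b, the targeted gene, was at 9.38–13.4 CPM (counts scaled to a common library size with TMM factors) in the DPBS livers, 7.93–12.01 CPM in the Control-ASO livers and 0.651–1.58 CPM after Upf3b-ASO. The male Control-ASO replicate 3 stood apart from the other 11 livers. The 16 acute-phase genes summed to 97337 CPM there and to 12728–19801 CPM elsewhere, and 13 of the 16 were highest in that liver. Its summed endothelial markers, at 433 CPM against 427–612 CPM in the others, and stellate markers, at 423 CPM against 329–724 CPM, lay within the range of the other livers, but single markers did not. Of 7 endothelial markers 3 were highest there (Lyve1 at 77.1 CPM against at most 17.3 CPM) and 3 lowest (Clec4g at 17.1 CPM against at least 54.5 CPM, Kdr at 32.9 CPM against at least 75.7 CPM), and of 8 stellate markers 4 were lowest (Col3a1 at 8.07 CPM against at least 28.8 CPM). The part of these cells in the results was not tested. Lymphocyte markers summed to 4.5 CPM against 3.3–6.0 CPM. Hepatocyte markers were abundant in all livers, at 45754–97076 CPM in sum, and no marker of any list was at 0 reads in all of them. The female Control-ASO replicate 1 differed in another way, with 3014 CPM of erythroid markers against 211–549 CPM in the other 11 livers, 152 CPM of neutrophil and monocyte markers against 49.0–77.3 CPM, and 785 CPM of Kupffer cell markers against 302–551 CPM. The comparisons of the members are therefore given with all 12 livers and without Control-ASO replicate 3. In whole liver, fewer cells of a type and less RNA per cell cannot be told apart.

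In DPBS livers the AP-1 subunit genes Jund and Junb were the most abundant members per length. Jund, the JUN family gene that is expressed in most resting tissues, was at a level of 24.4 ± 3.74 TPM (SD, n = 4). Junb was at 14.5 ± 3.46 TPM. The 4 Jund values did not overlap the 4 Junb values, which in turn lay above those of the next gene. Ier2, a small nuclear protein gene, was at 5.93 ± 1.62 TPM, followed by Jun at 4.45 ± 0.26 TPM. Btg2, an anti-proliferative gene whose protein recruits mRNA deadenylases, was at 4.24 ± 1.31 TPM, and Klf6, a zinc-finger transcription factor gene, at 3.79 ± 1.4 TPM. These 4 genes overlapped and could not be ordered. The growth regulator Myc (1.52 ± 0.479 TPM), the AP-1 subunit gene Fos (1.45 ± 1.07 TPM) and Ier3, a stress-induced survival gene (1.18 ± 0.184 TPM), overlapped each other at a lower level. Egr1, a zinc-finger transcription factor gene, was lowest at 0.483 ± 0.29 TPM. Fos ranged over 0.417–2.64 TPM and overlapped both Klf6 above it and Egr1 below it. The files give Jund a model of 2878 bases, which enters its TPM.

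Promoter and mRNA sequence are shown because the members share a class of response rather than a protein family. The RefSeq promoter table (GRCm38.p6, 250 bases before to 50 after each start) held 7 of the 10 genes: Jun, Junb, Jund, Fos, Ier3, Klf6 and Btg2. The motif TGACATCA, the site through which JUN dimers are known to act on the Jun promoter, was found in Jun and Klf6, on either strand in 3.62% of the 32851 promoter windows. The related cyclic AMP response element TGACGTCA was found in Btg2 and in 1.79% of windows. TATAAA was found in Fos and Junb and in 13.6% of windows. In Junb it begins at the annotated RefSeq start rather than before it. The windows below run 5′ to 3′ on the gene's strand, with the motif in capitals. The first is at chr4:95052249-95052278 (minus strand), the second at chr13:5861359-5861388 (plus strand), the third at chr1:134079303-134079332 (minus strand) and the fourth at chr12:85473845-85473874 (plus strand), in the promoters 45, 119, 166 and 33 bases before the annotated start.
Jun: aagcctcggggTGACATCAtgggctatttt
Klf6: ttggtgcgagcTGACATCAtcgtcgcgcag
Btg2: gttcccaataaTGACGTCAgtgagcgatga
Fos: tcacagcgcttcTATAAAggcgccagctga
The CArG box, bound by serum response factor, the EGR site GCGTGGGCG and the AP-1 site TGANTCA were in none of the 7 windows, against 1.63%, 0.612% and 7.81% of all windows. The TGANTCA and TGACGTCA motifs do not overlap in their letters. A match says only that these letters are in the window, and a missing match says nothing of sites outside it. Sites more than 250 bases before a start, and the promoters of Egr1, Ier2 and Myc, were not searched.

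AU-rich elements in the 3′ UTR are known to shorten the life of many immediate-early mRNAs. In the GENCODE M21 transcript with the longest 3′ UTR of each gene, the pentamer ATTTA occurred in 9 of the 10 members, all but Ier2, and in 65.6% of 21173 genes. Its median density was 2.76 per 1000 bases in the members and 1.16 per 1000 bases over all genes. Ier3 had the highest density of the 10, with 5 copies in 613 bases. The nonamer TTATTTATT was present in Fos alone and in 7.57% of genes. The stretches of Ier3 and Fos with the most pentamers are given below, with the pentamers in capitals, from bases 174–203 and 642–671 of the 3′ UTR.
Ier3: ctaattaatATTTAtgtATTTAtgtatatc
Fos: ttgtgttttcaATTTATTTAttaagatgga

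All 10 members had their highest level of the 12 livers in Control-ASO replicate 3, as had 31.1% of all tested genes. The level there was 3.97-fold (Ier2) to 53.4-fold (Fos) that of the median of the 3 other Control-ASO livers, with a median over the members of 19.7-fold, and it exceeded 10-fold for 8 of the 10. Summed over the members it was 2355 CPM, against 113–157 CPM in the other 11 livers. Over the 8846 genes tested, 2.77% were more than 4-fold higher in that liver than in the other 3 controls, and 6 of the 7 members tested were among them. Klf6 is one of these 7 only through that liver, since it reached 5 TPM in 3 of the others. That 1 animal has no replicate, so these folds describe 1 liver and carry no test. Without TMM scaling the median gene of that liver would lie 0.39 lower on the log2 scale than in the other controls, against 0.03 lower with it.

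Among the AP-1 subunits, Jun was at 11.2, 10.8, 13.2 and 12.1 CPM in the DPBS livers, at 13.7, 10.3, 470 and 14.6 CPM in the Control-ASO livers and at 15.1, 19.0, 10.5 and 14.6 CPM with Upf3b-ASO. The 11 livers other than Control-ASO replicate 3 thus stayed within a 1.85-fold span, and the outlying value was 24.8-fold above the highest of them. Junb was at 19.6, 25.5, 17.5 and 20.8 CPM with DPBS, at 28.3, 25.7, 392 and 16.7 CPM with Control-ASO and at 15.5, 10.97, 20.8 and 17.2 CPM with Upf3b-ASO. Jund was at 59.0, 58.3, 54.6 and 58.7 CPM with DPBS, at 61.4, 62.5, 467 and 55.3 CPM with Control-ASO and at 63.7, 54.9, 48.4 and 52.2 CPM with Upf3b-ASO. Outside the 1 liver, Jund had the narrowest span of the 10 members, at 1.32-fold. Fos was at 0.83–2.91 CPM in the 11 livers, which is 14–56 reads, and at 63.8 CPM (885 reads) in the outlying one. Genes for both the JUN and the FOS side of the dimer were thus high in the same liver.

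The other transcription factors and growth regulators behaved alike in that animal. Btg2 was at 7.75, 11.3, 6.69 and 12.2 CPM with DPBS, at 17.7, 16.9, 575 and 11.1 CPM with Control-ASO and at 16.4, 12.8, 11.6 and 11.5 CPM with Upf3b-ASO, so that it passed Jun as the member with the highest CPM in the outlying liver. Klf6 was at 16.7, 15.1, 9.06 and 11.8 CPM with DPBS, at 22.2, 15.95, 247 and 12.5 CPM with Control-ASO and at 18.1, 14.8, 13.3 and 11.9 CPM with Upf3b-ASO. Egr1 was at 32.4 CPM there and at 0.397–2.62 CPM in the other livers. Ier3 stood at 25.1 CPM against 0.464–1.10 CPM. Ier2 was at 32.2 CPM against 5.30–8.68 CPM, and Myc, at 2.65-fold, exceeded the highest of the other 11 livers by the smallest factor of the 10. Of the other 11 livers, Control-ASO replicate 1, the one with high erythroid and myeloid markers, held the highest Junb, Egr1, Klf6 and Btg2, 4 of the 10 members, and the part of those cells in these values was not tested.

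**Figure D1:**
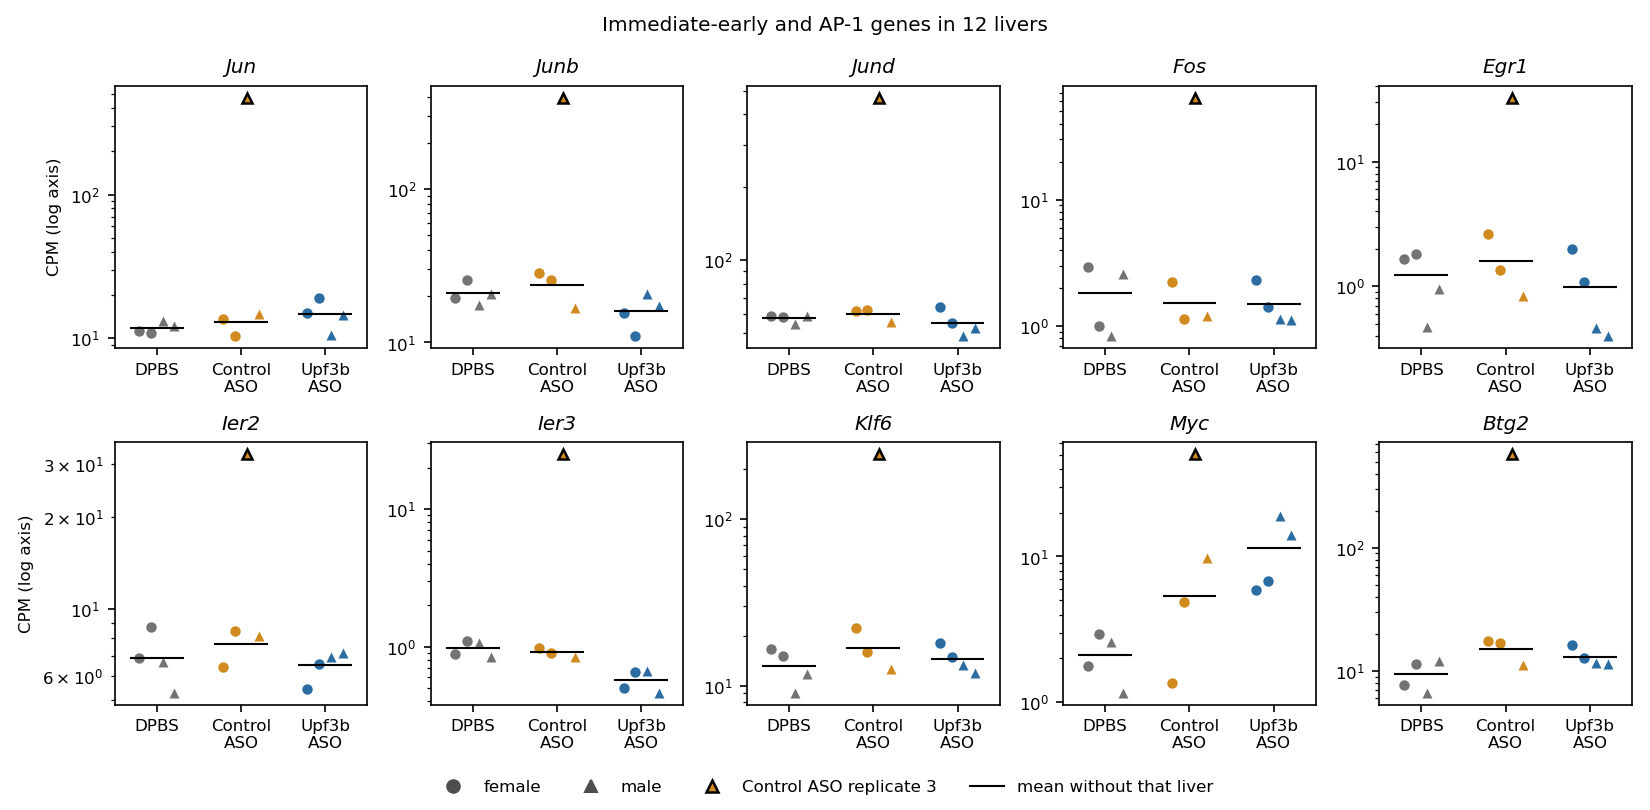
CPM of each of the 10 genes (log axis) in 4 DPBS, 4 Control ASO and 4 Upf3b ASO livers; circles are females, triangles males, the outlined triangle is Control ASO replicate 3 and each bar is the group mean without that liver. In every panel the outlined triangle is the highest point, from 25.1 CPM for Ier3 to 575 CPM for Btg2, and for Myc the Upf3b ASO livers also lie above all DPBS livers.

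Genes around the members were taken from 7 lists. In Control-ASO replicate 3, 8 of 14 immediate-early growth and stress genes were more than 4-fold above the highest of the other 11 livers. They were Gadd45a, Gadd45b, Rhob, Ccn1, Btg1, Cdkn1a, Pim1 and Pim3. The DNA damage and stress gene Gadd45b was at 211 CPM against at most 3.66 CPM elsewhere, and Cdkn1a, which encodes the cell cycle inhibitor p21, at 77.8 CPM against at most 3.23 CPM. Of the 13 other AP-1 family genes, Fosb, Fosl2, Atf3 and Maff met the same criterion, and Atf3, a stress-induced bZIP factor, was at 348 CPM against 1.06–5.38 CPM. Among 12 other immediate-early transcription factors it was met by Klf4, Csrnp1 and Per1. Among 15 feedback inhibitors and RNA decay factors it was met by Dusp1, a MAP kinase phosphatase, Zfp36l2, a destabiliser of AU-rich mRNAs, Tnfaip3 and Socs3. The share of all genes meeting this criterion is not given here. More than 4-fold above the other Control-ASO livers, as were 2.77% of tested genes, were 11 of the 14 growth and stress genes. The same held for 4 of 13 AP-1 family genes, 7 of 12 transcription factors and 6 of 15 feedback inhibitors. These lists include genes under the expression filter.

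The upstream and downstream lists differed from these in their counts. None of 20 upstream kinases and transcription factors, 15 MYC network genes or 9 AU-rich element binding protein genes exceeded the highest other liver by more than 4-fold, and their medians over the 3 other controls were 1.24-fold, 1.32-fold and 1.03-fold. More than 4-fold above those controls were 0, 1 and 0 of these genes. The median for the 10 members was 19.7-fold, and for the growth and stress genes 10.8-fold. The remaining lists lay between, at 4.54-fold for other immediate-early transcription factors, 3.27-fold for feedback inhibitors and 2.11-fold for other AP-1 family genes.

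**Figure D2:**
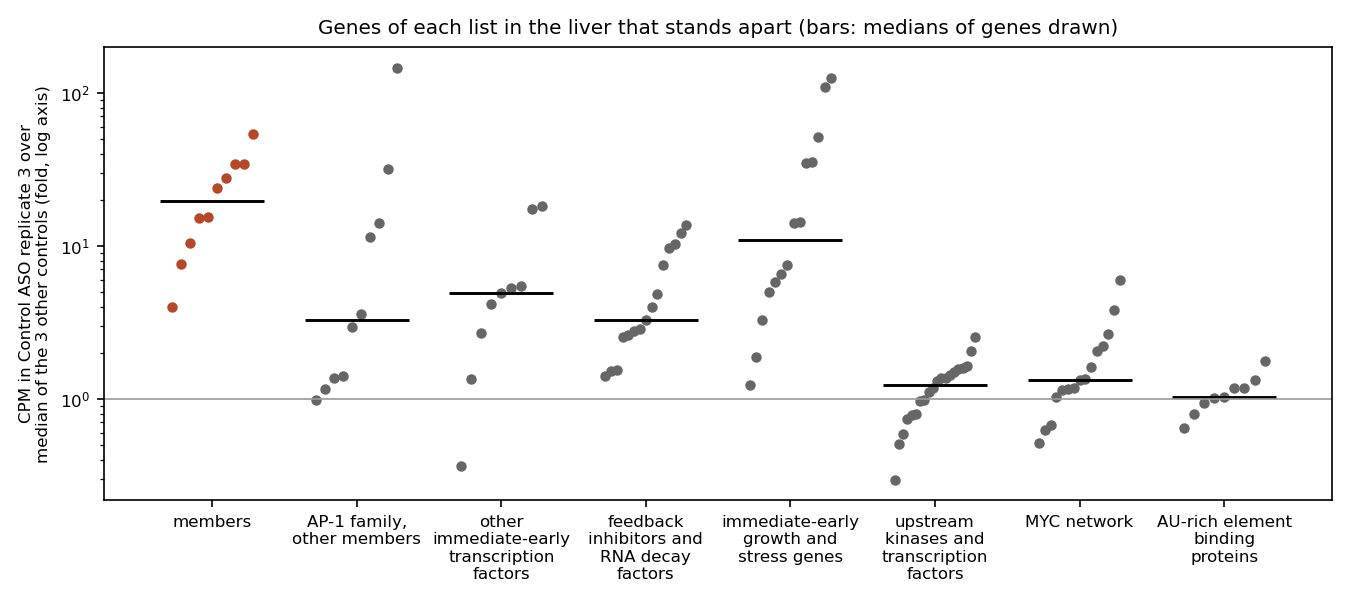
CPM in Control ASO replicate 3 divided by the median of the 3 other Control ASO livers (fold, log axis) for each gene of the 8 lists that reached 1 CPM in any liver, with a bar at the median of the genes drawn. Some of the members, of the growth and stress genes and of the other AP-1 family genes (Atf3) lie above 30-fold, whereas kinases and AU-rich element binding proteins lie around 1.

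The comparison of Upf3b-ASO with Control-ASO sets the Upf3b oligonucleotide against a scrambled one. The oligonucleotides differ in sequence, and the Upf3b-ASO was given at the lower dose. Depletion of Upf3b, sequence and dose therefore cannot be told apart in this comparison. With all 12 livers, edgeR's quasi-likelihood test called 0 of the 7 members tested at an adjusted p under 0.05, where it called 10.3% of all tested genes, and 4 of the 7 had an unadjusted p under 0.05. All 7 log2 fold changes were negative, with a median of −2.11 against −0.02 over all tested genes. The estimates reached −2.96 ± 1.24 (SE) for Btg2, −2.50 ± 0.87 for Junb (adjusted p = 0.093) and −2.41 ± 1.22 for Jun. DESeq2's Wald test called 2 of the 7, Btg2 and Junb, against 17.9% of all genes. When Control-ASO replicate 4 was left out instead, edgeR called Junb (−2.83 ± 0.73, adjusted p = 0.035), 1 of 7 against 12.1% of genes. That fit keeps Control-ASO replicate 3, with Junb at 392 CPM, as the only Control-ASO male. In the fit without an expression filter, Fos, Egr1 and Ier3 were at −2.85 ± 1.05, −3.004 ± 0.98 and −2.998 ± 0.87, with 0 of 10 members and 3.62% of genes called by edgeR and 9 members at an unadjusted p under 0.05. Without Control-ASO replicate 3 the changes were −0.16 ± 0.20 for Btg2, −0.53 ± 0.23 for Junb (adjusted p = 0.12) and 0.21 ± 0.19 for Jun, and those of Jund, Ier2 and Klf6 lay between −0.22 and −0.10. In that fit edgeR called 0 of 7 members and 24.5% of all tested genes. Without that liver and without the expression filter, Junb passed as lower (−0.51 ± 0.16, adjusted p = 0.028) and Myc as higher (0.98 ± 0.28, adjusted p = 0.016), 2 of 10 members against 10.4% of 23425 genes.

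Against DPBS, Myc was the member that differed. The Control-ASO animals do not enter the group means compared here. In the fit of all 12 livers they still share in the estimates of the spread and of the sex effect. Myc was at 1.77, 2.96, 2.61 and 1.17 CPM in the DPBS livers, at 1.37, 4.86, 50.3 and 9.74 CPM in the Control-ASO livers and at 5.88, 6.84, 19.0 and 14.0 CPM with Upf3b-ASO. All 4 Upf3b-ASO livers lay above all 4 DPBS livers, the 2 males higher than the 2 females. How large a share of all genes separates in this way is not given here. With all 12 livers in the fit the change was 2.14 ± 0.77 on the log2 scale and did not pass (edgeR adjusted p = 0.12), and 0 of 7 members were called against 8.93% of all tested genes. Of the 7, 1 had an unadjusted p under 0.05, and DESeq2 called Myc alone (2.04 ± 0.68, adjusted p = 0.025), against 14.4% of genes. In the fit of the Upf3b-ASO and DPBS livers alone the Myc change was 2.30 ± 0.37 (adjusted p = 0.0023), and in the fit without Control-ASO replicate 3 it was 2.27 ± 0.45, or 4.81-fold (adjusted p = 0.0038). Myc was then 1 of 7 members called, against 28% and 28.7% of all tested genes in these 2 fits. The share of members called was thus no higher than that of all genes.

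For Myc between Upf3b-ASO and Control-ASO, without replicate 3, the log2 change was 0.97 ± 0.45 (edgeR adjusted p = 0.14), and the Upf3b-ASO females, at 5.88 and 6.84 CPM, lay below the Control-ASO male at 9.74 CPM. Between the 2 reference groups it was 1.30 ± 0.49 (adjusted p = 0.40). These 3 comparisons share livers. The reads behind the Myc values were few, 22 to 285 in the other 11 livers and 698 in Control-ASO replicate 3.

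For the other members tested no difference from DPBS passed in the filtered fit. With all livers the log2 changes lay between −0.50 ± 0.81 (Junb) and 0.51 ± 1.08 (Btg2), with edgeR adjusted p-values of 0.77 to 0.97. Without replicate 3 the log2 changes were 0.45 ± 0.19 for Btg2 (edgeR adjusted p = 0.098), 0.33 ± 0.17 for Jun (adjusted p = 0.17), 0.16 ± 0.13 for Klf6, −0.07 ± 0.06 for Jund, −0.07 ± 0.16 for Ier2 and −0.36 ± 0.21 for Junb. Btg2 passed in the fit without an expression filter (0.45 ± 0.14, adjusted p = 0.029), where 12.6% of genes were called. Ier3 was at 0.502, 0.651, 0.666 and 0.464 CPM in the Upf3b-ASO livers, from 7–12 reads each, and at 0.836–1.10 CPM in the DPBS and other Control-ASO livers. The groups did not overlap, but in the edgeR fits without a filter the change against DPBS was −0.82 ± 0.91 with all livers (adjusted p = 0.81) and −0.75 ± 0.34 without replicate 3 (adjusted p = 0.17). The share of all genes that separate in this way is not given here.

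Between Control-ASO and DPBS, the comparison that isolates the scrambled oligonucleotide, all 7 log2 changes were positive with all livers, from 0.87 ± 0.44 (Ier2) to 3.47 ± 1.24 (Btg2), with a median of 2.23 against 0.01 over all tested genes. None of the 7 passed (edgeR adjusted p = 0.64 for each), where 0.0113% of all tested genes did, and 5 of the 7 had an unadjusted p under 0.05. DESeq2 called 0 of 7 members and 0.509% of genes. Without replicate 3 the median change of the 7 was 0.16 against −0.0012 over all genes, and the largest were 1.30 ± 0.49 for Myc and 0.61 ± 0.20 for Btg2 (adjusted p = 0.32), with 0 of 7 called, 2 at an unadjusted p under 0.05, and 0.0565% of all genes called. Without the filter Myc passed (1.29 ± 0.31, adjusted p = 0.034), against 0.551% of genes.

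**Figure D3:**
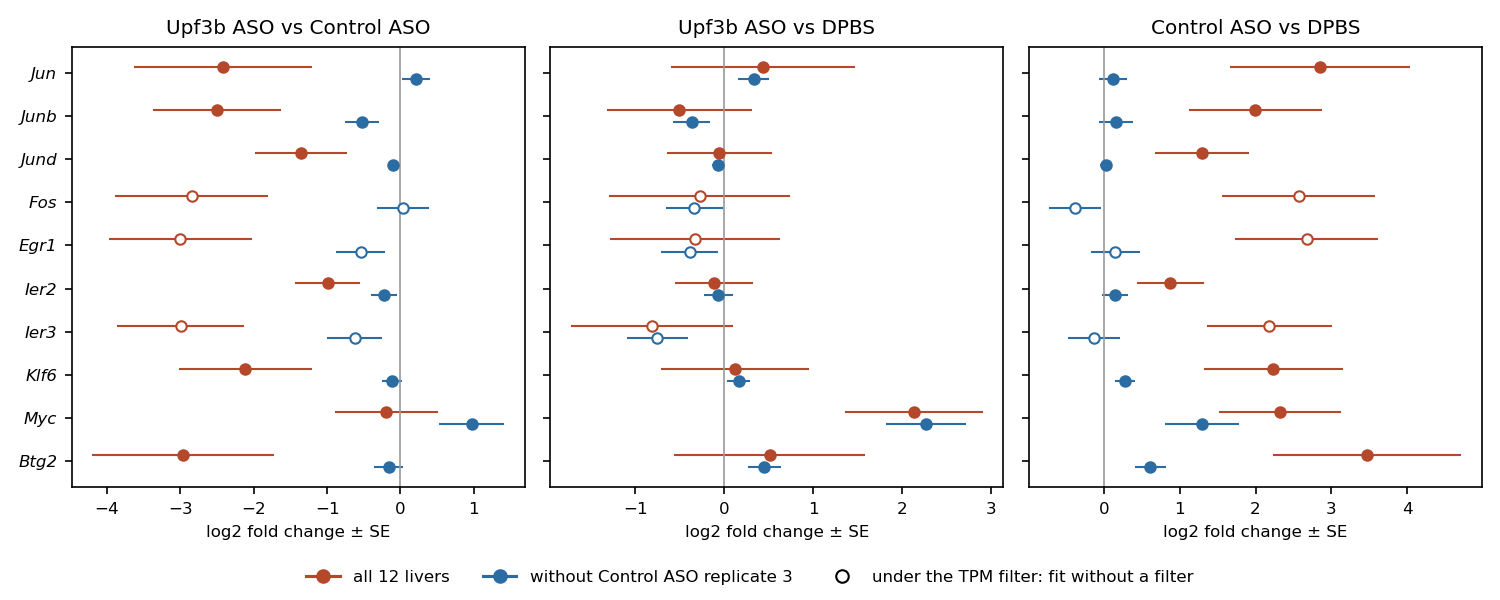
Log2 fold change ± SE of each gene in 3 comparisons, with all 12 livers (red) and without Control ASO replicate 3 (blue); open points are genes under the TPM filter, taken from the fit without a filter. In both comparisons that use the Control ASO group the red points of Jun lie at −2.41 and 2.85 and its blue points at 0.21 and 0.12, whereas Myc goes from −0.19 to 0.97 against Control ASO and stays near 2 for Upf3b ASO against DPBS.

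With Control-ASO replicate 3, itself a male, left out, edgeR called a sex difference in 1 of the 7 members tested. In the fit that also had no expression filter, chosen after the data were seen, it called 3 of 10. Klf6 was at 14.8–22.2 CPM with a median of 16.3 CPM in the 6 females and at 9.06–13.3 CPM with a median of 11.9 CPM in the 5 other males. The sexes did not overlap, and the log2 change was −0.52 ± 0.11 (edgeR adjusted p = 0.0066), the 1 call among 7 members against 21.9% of all tested genes. Klf6 was in the tested set only through the liver left out here, and it also passed without a filter (−0.50 ± 0.10, adjusted p = 0.00037). Egr1 was at 1.09–2.62 CPM in the females (median 1.74 CPM) and at 0.397–0.954 CPM in those males (median 0.474 CPM), also without overlap. These Egr1 values rest on 6–48 reads per liver. The share of all genes whose sexes separate in this way is not given here. In the fit without a filter Egr1 was lower, at −1.41 ± 0.28, on the log2 scale for males against females (adjusted p = 0.00027), and Myc higher, at 1.002 ± 0.23 (adjusted p = 0.0020), although Myc ranged over 1.37–6.84 CPM in females and 1.17–19.0 CPM in males. That fit called 3 of 10 members and 10.7% of genes. With all 12 livers edgeR called 0 of 7 members and 10% of all tested genes, 1 member had an unadjusted p under 0.05, and Klf6 was at 0.55 ± 0.75 (adjusted p = 0.70). Whether the effect of Upf3b-ASO differed between the sexes was tested with all 12 livers only. Control-ASO replicate 3 is 1 of the 2 Control-ASO males in that test, and no version without it was made. There edgeR called 0 of the 7 members, 4 at an unadjusted p under 0.05, and 0% of the 8846 genes.

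Some genes of the surrounding lists passed the test for Upf3b-ASO. Against Control-ASO, Per1 and Klf10 fell among the 5 tested of the 12 other immediate-early transcription factors. Without replicate 3 Hes1 fell too, 3 of 5 against 13.5% of all genes lower. The list was chosen with earlier results of these data known, so this count is a description and not a test of the list. The median change of the 5 tested genes was −2.06 with all livers and −0.60 without replicate 3. Per1, a circadian clock gene that is also induced as an immediate-early gene, was at 33.1, 30.9, 27.8 and 29.0 CPM with DPBS, at 29.4, 32.0, 155 and 26.5 CPM with Control-ASO and at 17.0, 16.8, 6.99 and 7.61 CPM with Upf3b-ASO. Its log2 change was −2.28 ± 0.62 with all livers (edgeR adjusted p = 0.042) and −1.24 ± 0.19 without replicate 3 (adjusted p = 0.0011). Against DPBS it was −1.31 ± 0.58 with all livers, which did not pass (adjusted p = 0.21), and −1.37 ± 0.18 without replicate 3 (adjusted p = 0.00033). Klf10, a TGF-beta-inducible repressor, was at 11.5–14.2 CPM in the Upf3b-ASO livers and at no less than 19.96 CPM in any other. Its log2 change was −2.06 ± 0.56 with all livers (edgeR adjusted p = 0.042) and −1.003 ± 0.17 without replicate 3 (adjusted p = 0.0023). Per1 and Klf10 were named because they were called, and how large a share of all genes separates in this way is not given here.

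The counts in the remaining lists are to be read against 10.3% of all tested genes called with all livers and 24.5% without replicate 3, 13.5% lower, and several lie near or below these shares. Of the feedback inhibitors, 9 of 15 were tested. With all livers 0 passed by edgeR, 5 at an unadjusted p under 0.05, and without replicate 3 Zfp36l2 (−0.58 ± 0.12, adjusted p = 0.0068) and Nfkbia, the inhibitor of NF-kappaB (−0.49 ± 0.07, adjusted p = 0.0010), fell. Of 16 kinases and upstream factors tested, Mapk14 (p38alpha), Map3k5 (ASK1) and Map2k2 (MEK2) fell with all livers, with log2 changes of −0.68 ± 0.12, −0.57 ± 0.11 and −0.37 ± 0.08, and again without replicate 3. In the MYC network Mycl, a paralogue of Myc, rose by 1.12 ± 0.26 with all livers (adjusted p = 0.021) and by 0.91 ± 0.19 without replicate 3 (adjusted p = 0.0069), 1 of 11 tested. Mycl was at 19.5–27.5 CPM with Upf3b-ASO and at 5.69–15.8 CPM in the other livers. It was named because it was called, and the share of all genes that separate in this way is not given here. Atf7, 1 of 4 other AP-1 family genes tested, fell in both fits, and 1 of 9 AU-rich element binding protein genes rose in both, Tia1. Of 10 growth and stress genes tested, 0 passed by edgeR with all livers, 5 at an unadjusted p under 0.05, and Pim3 fell without replicate 3 (−0.64 ± 0.16, adjusted p = 0.017).

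**Figure D4:**
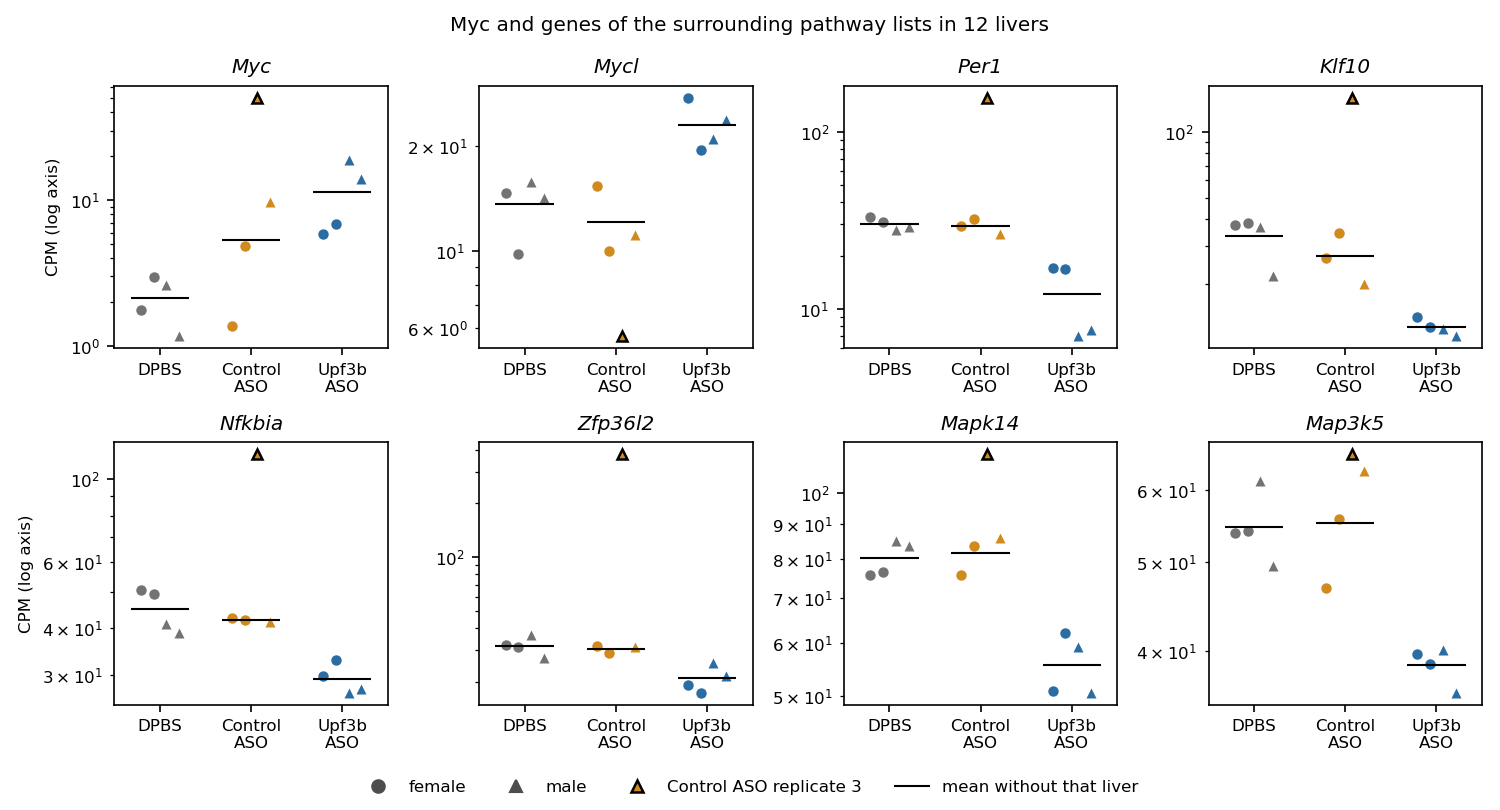
CPM (log axis) of Myc and 7 genes of the surrounding lists in the 12 livers, drawn as for the 10 members. The 4 Upf3b ASO livers lie below all others for Per1, Klf10, Nfkbia, Zfp36l2, Mapk14 and Map3k5 and above all others for Mycl. These 7 genes were drawn from those called for Upf3b ASO against Control ASO, so their separation is a description. The share of all genes that separate in this way is not given here.

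Jun, Junb, Jund and Ier2 have a single exon, and 7 of the 10 members were quantified as 1 transcript. Myc was divided over 8 transcripts in the files, Fos over 4 and Egr1 over 2. The shares of 7 transcripts with at least 10% of a gene's reads, 2 of Egr1 and 5 of Myc, were compared in 3 group comparisons, 21 tests in all that are not independent, by a two-sided exact permutation test (4 livers against 4, smallest possible p = 0.0286). With Benjamini-Hochberg adjustment 0 of 21 passed, the smallest adjusted p was 0.6 and 0 had an unadjusted p under 0.05. Myc-201 and Myc-205 received equal reads in every liver, so that the shares of single Myc transcripts are uncertain and only the summed gene was used.

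Over the 11 other livers, the 21 pairs of the 7 tested members had Pearson correlations of log2 CPM from −0.79 (Jun with Junb) to 0.68 (Klf6 with Btg2), with a median of 0.09 and 10 below 0. The genes outside the list whose level was most like the mean of the 7 standardised members over 12 livers were H3f3b (r = 0.99, rho = 0.69), Dync1li1, Serpina3n, Bcl2l1 and Ppp2r2d. For H3f3b r was 0.53 without the 2 farthest livers, so that the likeness rested on them. Over the 11 livers they were Lcn2 (r = 0.91, rho = 0.96), Tst, Galk2, Ppt1 and Psmb10. These correlations share the library scaling of the same livers and are given as descriptions.

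The sequence listed for the Upf3b oligonucleotide, taken here to be that of its GalNAc form too, has 16 bases. It is shown with the site it is complementary to, so that the members can be compared with it. Its exact site occurred in the transcripts of 1 gene, Upf3b, at bases 2034–2049 of Upf3b-201, within the 3′ UTR that starts at base 1511. The best match in any member had 10 or 11 of the 16 bases.
Upf3b-ASO: ggatatagatgtaacg
Upf3b site: cgttacatctatatcc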

How the data were processed

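Livers of 12 mice in 3 groups of 4 were analysed, grouped by the treatment in the labels. Per the labels and methods, the authors demultiplexed the reads with bcl2fastq 2.17.1.14 and quantified transcripts with Salmon 0.7.2 (GRCm38.p4). The deposited files hold estimated counts and TPM per transcript. Here 98.1% of 92468 transcripts were joined to genes, which held 97.51–99.26% of the estimated counts, and the counts of a gene's transcripts were added up and rounded to whole numbers. The deposited TPM values were summed per gene for the filter (TPM of at least 5 in at least 4 livers) and for levels.

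Counts were tested with edgeR 4.0.16 (quasi-likelihood, TMM, sex as covariate, Benjamini-Hochberg adjustment over 8846 genes) in R 4.3.3. CPM in the text uses TMM library sizes, and SE is that of the log2 fold change. DESeq2 1.42.0 and limma 3.58.1 on log2(TPM + 1) were alternatives, as were other filters, covariates and samples, and each liver was left out in turn. Exact permutation tests used scipy 1.17.1. The scripts were tested on simulated data. Replicates are separate mice, and the 18 pairs of livers within groups all differed by more than sampling noise. With 13.28–20.39 M estimated counts per liver, members under about 50 reads are imprecise.

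All 10 members were named. From the surrounding lists, up to 4 called genes by size of change were named, plus genes over 4 times the highest other liver in 1 liver. The members and lists were chosen with earlier results of these data known. Promoters came from RefSeq (GRCm38.p6), 3′ UTRs from GENCODE M21 transcripts of GRCm38, and the oligonucleotide from the study's supplement. Promoters of Egr1, Ier2 and Myc were not used here. The result for 1 further gene of the kinase list is not reported here.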

Additional observations from a re-analysis of the deposited data

Results flagged for a closer look

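In groups of 4 livers, a value whose gap to its nearest neighbour exceeded Dixon's 95% limit was singled out, which chance does in about 1 of 20 groups. The members were chosen with earlier results of these data known, and the share of all genes singled out is not given here. Of 33 groups, 10 were singled out, but 9 of these share 1 liver. The groups are thus not independent, and the rate of 1 in 20 does not gauge the 10 singled out. In 9 of these 10 groups the male Control-ASO replicate 3 was the highest, with Jun at 470 CPM, Junb at 392 CPM, Jund at 467 CPM, Fos at 63.8 CPM, Egr1 at 32.4 CPM, Ier2 at 32.2 CPM, Ier3 at 25.1 CPM, Klf6 at 247 CPM and Btg2 at 575 CPM. Myc, at 50.3 CPM in that liver with the next Control-ASO liver at 9.74 CPM, fell just short of the limit. The summed acute-phase genes moved with these values, and their part in them was not tested. In the tenth, Jund was lowest in DPBS replicate 3 at 54.6 CPM, against 58.3–59.0 CPM in the other DPBS livers.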

How the results depend on the processing

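For Upf3b-ASO against Control-ASO, 910 genes passed with all livers. The count was 1584 by DESeq2, 347 and 334 by limma on log2(TPM + 1) and log2(TPM + 0.1), 2867 by limma voom with sample weights, 519 without sex and 363 in the fit of those groups alone. It ranged over 434–2168 when each liver was left out, and the highest was without Control-ASO replicate 3. Alternatives that leave out that liver and change a second choice were chosen after the data were seen. They gave 2090 with the replicate block, 2194 by DESeq2, 2434 without a filter, 2167 with the filter in 11 livers and 1732 without replicates 1 and 3.

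Against DPBS, 790 genes passed, and the same alternatives gave 1274, 325 and 313, 2948, 477 and 2478, a leave-one-out range of 400–2540, and without replicate 3 then 2424, 2562, 2944, 2535 and 2626, with 1187 by limma. For Control-ASO against DPBS, 1 gene passed, with 45 by DESeq2, 0 by limma at either pseudocount, 80 by voom, 0 with the block, 0 in the fit of those groups alone and 0–5 with each liver left out. Without replicate 3 the counts were 0 with the block, 106 by DESeq2, 129 without a filter, 0 by limma, 5 with the filter in 11 livers and 15 without replicates 1 and 3. At an unadjusted p under 0.05 edgeR had 617 genes. For sex, 887 genes passed, with 1359 by DESeq2, 3062 and 2972 by limma, 2025 by voom, 581–1939 with each liver left out and 2502 without replicate 3 and without a filter. For the sex difference of the Upf3b-ASO effect, 1 gene passed without a filter.

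Among the members, the log2 change of Jun between Upf3b-ASO and Control-ASO turned positive with voom (0.25) and without replicate 3 (0.21), where the block gave 0.25, DESeq2 0.20, no filter 0.22, limma 0.16, the filter in 11 livers 0.21 and leaving out replicate 1 too 0.26. Its leave-one-out range was −3.16 to 0.21. Fos turned to 0.038 without replicate 3 and without a filter, and Klf6 to 0.032 without replicates 1 and 3. Myc turned from −0.19 to 0.34 and 0.48 by limma, 0.84 by voom, 0.12 with the block, 0.0054 in the fit of both groups and 0.97 without replicate 3, where the block gave 0.94, DESeq2 0.99, no filter 0.98, limma 0.89, the filter in 11 livers 0.97 and leaving out replicate 1 too 0.61. Its leave-one-out range was −0.64 to 0.97.

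Against DPBS the leave-one-out ranges crossed 0 for Jund (−0.26 to 0.11), Ier2 (−0.32 to 0.12) and Klf6 (−0.14 to 0.37). Between Control-ASO and DPBS, without replicate 3, Jund was at −0.00028 by limma, and without a filter Fos was at −0.37 and Ier3 at −0.13. For males against females, voom gave −0.0020 for Jun, −0.021 for Junb, −0.11 for Jund, −0.058 for Ier2, −0.42 for Klf6 and −0.22 for Btg2. Without replicate 3 these were −0.014, −0.066, −0.14, −0.026, −0.52 and −0.28, and without a filter too −0.0017, −0.054, −0.13, −0.015, −0.50 and −0.27, with Fos at −0.41, Egr1 at −1.41 and Ier3 at −0.072. With each liver left out in turn the highest values of the same 6 genes were 1.61, 1.31, 0.72, 0.60, 0.80 and 1.46, and the lowest were those without Control-ASO replicate 3. By limma Klf6 was at −0.029 and −0.12 and Upf3b at −0.088 and −0.22.

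The replicate numbers do not pair the mice beyond sex. Deviations from the group and sex means of same-numbered livers correlated between −0.11 and 0.18. With the replicate block Myc against DPBS was 2.24 with all livers (edgeR adjusted p = 0.095) and 2.29 without replicate 3 (adjusted p = 0.0055). Each sex of a group holds 2 mice, so 1 animal weighs heavily, and Fos, Egr1 and Ier3 rest on 56 reads or fewer in 11 livers.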
